A study of Mus musculus with 60 samples.

Results

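Mouse fibroblasts turn glucose into lactate through a chain of enzymes, and the genes for most of these enzymes belong to the same hypoxia response that also controls oxygen delivery and mitochondrial removal. HIF1A, the oxygen-labile subunit of hypoxia-inducible factor, is marked for destruction by the prolyl hydroxylases EGLN1 and EGLN3 when oxygen is present, and at low oxygen it pairs with ARNT and binds short ACGTG or GCGTG elements near its target genes. In pluripotent cells glycolysis runs at a high rate, and a shift of metabolism toward it is known as an early event when fibroblasts are reprogrammed. Here 32 genes of glycolysis and the hypoxia response were followed, out of 56980 gene identifiers counted, and all 32 passed the filter on low counts in every comparison. They were chosen by name and function and are ordered below by role, as transport into and out of the cell, the upper and lower steps of glycolysis with the regulators of phosphofructokinase, entry into mitochondria, HIF and its hydroxylases, and other hypoxia response genes.

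The genes were measured by bulk RNA-seq in 60 libraries, 3 in each of 20 groups of fibroblasts, all kept at 3% O2 and passaged little after isolation. In the reprogramming experiment, tail tip fibroblasts labelled 4FJ_ERCC1_(d/-) came from an 8-week-old male (called D/KO), and those labelled 4FJ_(+/-)_OCT4-GFP from a 22-week-old female (called WT). Each line carries an OKSM transgene (Oct4, Klf4, Sox2 and c-Myc) at Col1a1 that doxycycline (2 µg/ml) switches on. The paper traces the OCT4-GFP cells and the Ercc1 strains to different published OKSM mice, and names the ROSA26-M2-rtTA allele for the Ercc1 strains only. Each line was sampled at day 0, 2 and 4 of doxycycline, with or without VC. VC is ascorbic acid (50 µg/ml), a cofactor of dioxygenases such as the EGLN enzymes, plus CHIR (3 µM), an inhibitor of glycogen synthase kinase 3. D/KO cells carry a single truncated allele of the DNA repair gene Ercc1. In the inhibitor experiment, tail tip fibroblasts labelled ERCC1_(d/-), from a 4-week-old female, were left as controls or treated with the ALK5 inhibitors Repsox, Vactosertib or A83-01 or with the ALK2 inhibitor DMH-1, and untreated ERCC1_(+/+)_WT tail tip and skin fibroblasts came from a 14-week-old female. The paper also calls Vactosertib a dual inhibitor of ALK5 and ALK2, and it is grouped here with the ALK5 inhibitors. Tail tip fibroblasts of the 4FJ_(+/-)_OCT4-GFP line (22-week-old female) treated with TGFB have no untreated partner in their own table and are given as levels only. Genotype, age, sex or line differ together in every comparison of D/KO with WT and cannot be told apart, and nothing says that the 3 libraries of a group came from separate cultures, so p-values measure the spread between those libraries only, which may be technical.

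The total count of a library lay between 16538374 and 18484951 in the reprogramming experiment and between 17102639 and 30599138 in the inhibitor experiment. Ercc1, the targeted gene, read 14.1 ± 3.87 CPM (counts scaled to the library size) in D/KO and 20.5 ± 2.23 CPM in WT at day 0 (mean ± SD, n = 3). In the inhibitor experiment it was not lower in control D/KO, at 20.6 ± 0.28 CPM against 18 ± 4.29 CPM in WT tail tip cells, a log2 difference of 0.21 ± 0.16 (edgeR adjusted p = 0.317). A truncated allele can still give counts, so the level does not check the genotype labels there. Pou5f1, a factor of the cassette, rose at day 4 by a log2 fold change of 6.26 ± 0.39 in D/KO and 4.94 ± 0.34 in WT, with edgeR adjusted p = 9.42e-16 and 5.55e-14. Sox2 and Myc rose in both lines as well, but Klf4 rose by 1.15 ± 0.18 in D/KO and had 0.25 ± 0.18 in WT, where it rose with VC, by 1.65 ± 0.18. WT skin replicate 1 and Repsox replicate 2 stood apart from their groups, and the counts and fold changes that rest most on them are given also without them. All 12 fibroblast marker genes looked up had a mean of at least 1 CPM in each of the 20 groups. In the TGFB-treated group the 4 skeletal muscle markers summed to 1710 to 2060 CPM. There 2 of the 4 had a mean of at least 1 CPM and 1 had no counts in any library.

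The enzymes of the central chain were among the most abundant transcripts of the set and the specialised isoforms among the least. Per length, Pgk1 (phosphoglycerate kinase, the first ATP-yielding step) stood at 2672 ± 425 TPM in D/KO at day 0, Pkm (pyruvate kinase) at 2413 ± 403, Aldoa (the main fibroblast aldolase) at 2247 ± 367 and Ldha (lactate dehydrogenase A) at 1934 ± 330 TPM, which is counts scaled by exon length and library size (mean ± SD, n = 3 here and below). These neighbours in the order lay within their spread of each other. At the other end were Slc2a3 (glucose transporter GLUT3) at 1.38 ± 0.285 TPM, Car9 (a surface carbonic anhydrase) at 2.6 ± 0.19, Pfkfb4 at 3.71 ± 0.274 and Ankrd37 at 6.15 ± 2.86 TPM. WT cells at day 0 had the same 3 genes on top, Aldoa at 1533 ± 95.5, Pgk1 at 1319 ± 58.3 and Pkm at 1299 ± 77.3 TPM, and Adm (adrenomedullin, a vasodilator peptide) at 862 ± 20.7 TPM was almost as abundant as the enzymes.

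Together the 32 genes took 1.73% ± 0.328 of all counts in D/KO at day 0 and 1.32% ± 0.133 at day 4, against 1.36% ± 0.113 at day 0 and 1.96% ± 0.233 at day 4 with VC. The 6 WT groups of the same table had mean shares of 0.948 to 1.22%, below every D/KO group. In the inhibitor table the share was 1.99% in control D/KO, 1.14% in WT tail tip and 2.38% in WT skin cells. These shares follow the abundant enzymes and say little of the rare members. Shares and single-gene values in bulk samples do not tell fewer cells of a type from less RNA per cell.

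Some members share sequence or territory with other genes. Eno1 (enolase 1) has a near-identical copy, Eno1b, and Eno1b took 22.2 to 29.8% of the counts of the pair in the reprogramming table and 9 to 13.3% in the inhibitor table without the TGFB-treated group, so Eno1 values are uncertain. Ankrd37 (3744 counts over all 60 libraries) overlaps exons of the more abundant Ufsp2 on the other strand, Slc16a3 overlaps Csnk1d, Pfkm overlaps Senp1 and Pfkp overlaps Pitrm1. Whether counting used strand is not given in the sources used here, so part of these genes' counts may belong to the neighbour.

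Short hypoxia-inducible factor elements were searched in the 200 bases before the start of each gene's canonical transcript, because these letters are the sites that the factor is known to bind. ACGTG or GCGTG, on either strand and with overlapping matches counted, was found in 18 of the 32 members (56.2%) and in 36.8% of 21618 protein-coding promoters of the same length. At least 2 matches were found in 12 members and in 15.1% of all promoters, and CACGTG, a palindrome whose letters hold ACGTG, in 5 members and 5.46%. Each CACGTG counts as 2 overlapping matches, so 2 matches need not be separate sites. Pfkp, Hif1a and Egln1 each had 2 matches and 1 CACGTG. The windows of 4 members that hold a match and 2 that hold none are printed 5′ to 3′ on the strand of the gene, from GRCm39, with each match in capitals (CACGT and CACGC are matches on the other strand), to show how such elements lie next to genes that moved in different directions. They are Pgk1 at chrX:105230506-105230705 (+) with matches 150 and 131 bases before the start, Ankrd37 at chr8:46452906-46453105 (-) with overlapping matches 137 and 134 bases before, Hk2 at chr6:82751453-82751652 (-) with a match 35 bases before, Slc2a1 at chr4:118965708-118965907 (+) with a match 27 bases before, and Pfkfb3 at chr2:11507418-11507617 (-) and Pfkfb4 at chr9:108820646-108820845 (+) with none. The canonical transcripts of Ankrd37 and Pfkfb3 start inside the span of the gene, so these windows lie within it and not before its outer end.
Pgk1: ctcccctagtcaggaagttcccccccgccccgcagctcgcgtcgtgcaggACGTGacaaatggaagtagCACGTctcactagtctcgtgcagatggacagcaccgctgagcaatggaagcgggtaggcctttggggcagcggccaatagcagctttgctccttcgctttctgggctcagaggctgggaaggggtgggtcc
Ankrd37: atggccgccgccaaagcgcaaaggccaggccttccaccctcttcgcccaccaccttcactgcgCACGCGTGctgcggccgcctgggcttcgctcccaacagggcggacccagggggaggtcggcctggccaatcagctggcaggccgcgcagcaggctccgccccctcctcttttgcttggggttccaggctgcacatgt
Hk2: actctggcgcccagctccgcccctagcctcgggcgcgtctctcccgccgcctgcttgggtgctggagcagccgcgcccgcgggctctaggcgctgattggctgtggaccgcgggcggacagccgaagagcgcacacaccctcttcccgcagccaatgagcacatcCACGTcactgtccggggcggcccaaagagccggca
Slc2a1: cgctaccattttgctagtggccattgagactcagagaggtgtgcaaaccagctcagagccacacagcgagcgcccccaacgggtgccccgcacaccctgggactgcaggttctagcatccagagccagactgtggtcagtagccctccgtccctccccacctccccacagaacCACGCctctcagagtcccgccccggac
Pfkfb3: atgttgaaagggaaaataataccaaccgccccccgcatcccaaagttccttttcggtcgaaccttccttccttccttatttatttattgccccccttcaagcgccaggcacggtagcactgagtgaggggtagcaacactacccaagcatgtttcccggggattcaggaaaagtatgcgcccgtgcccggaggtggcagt
Pfkfb4: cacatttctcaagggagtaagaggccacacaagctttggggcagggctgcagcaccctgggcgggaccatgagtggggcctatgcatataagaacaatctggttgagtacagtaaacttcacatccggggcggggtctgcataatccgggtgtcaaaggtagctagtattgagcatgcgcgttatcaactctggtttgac

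A match is a string of letters and no evidence of binding, and a window without a match says nothing about elements farther away. Pfkfb4, without a match, had the largest change of these 6 genes in D/KO at day 4 without VC, and Ankrd37, with overlapping matches, the smallest, while at day 4 plus VC the smallest was that of Pgk1.

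How did glycolysis and hypoxia genes change while the OKSM factors were induced? In D/KO without VC most members that changed fell and a small group of isoform genes rose steeply, and in the other settings rises and falls were closer in number. In D/KO cells without VC 3 members were called higher and 12 lower at day 2 (all genes tested: 14.3% higher and 13.2% lower). There 4 members were called higher and 20 lower at day 4 (all genes tested: 18.3% higher and 18.7% lower). The median log2 fold change of the 32 genes at day 4 was -0.80, where the median of all genes tested was 7.62e-05. The share of members lower at day 4 stood above the share of all genes, and the share higher stood below it. Genes were called at an edgeR quasi-likelihood adjusted p under 0.05, with each day compared with day 0 of the same medium and the adjustment made over all genes tested.

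With VC in both media the balance in D/KO was more even. Here 9 members were called higher and 12 lower at day 2 (all genes tested: 23.8% higher and 23.6% lower), and 8 members were called higher and 15 lower at day 4 (all genes tested: 27.9% higher and 26.2% lower), with a median log2 fold change of -0.25. Fewer members moved in WT cells, where 4 members were called higher and 2 lower at day 2 (all genes tested: 6.26% higher and 4.3% lower) and 4 members were called higher and 10 lower at day 4 (all genes tested: 11.7% higher and 12.8% lower). With VC in WT 6 members were called higher and 8 lower at day 2 (all genes tested: 13.8% higher and 13.7% lower) and 8 members were called higher and 10 lower at day 4 (all genes tested: 22.7% higher and 22% lower). The WT count at day 2 went from 6 members to 2 or 3 without day 0 replicate 1, 2 or 3 or day 2 replicate 2 or 3, and the count at day 4 from 14 to 9 without day 0 replicate 2 or day 4 replicate 3. With only the compared libraries in the fit the WT count at day 4 was 23. The lines share no sample. At day 4 without VC, 3 members rose in both (Slc2a3, Aldoc, Pfkfb4), 10 fell in both (Slc2a1, Slc16a3, Pfkl, Pgk1, Pgam1, Eno2, Bnip3, Vegfa, Adm, Ero1a), and Hk2 moved in opposite directions (all genes tested: 7.12% higher in both, 7.77% lower in both and 0.771% opposite). Among the 10, the WT call of Pfkl held under 3 of 10 alternatives, that of Pgam1 under 4 of 10 and that of Slc2a1 under 5 of 10. At day 4 plus VC, 6 rose in both (Slc2a3, Gpi1, Pfkp, Aldoc, Pfkfb4, Egln3), 8 fell in both (Slc2a1, Slc16a3, Pfkl, Pgam1, Hif1a, Egln1, Bnip3, Adm), and Vegfa was opposite (all genes: 12.9% higher in both, 14.5% lower in both and 3.52% opposite). The WT call of Pfkp held there under 4 of 11 alternatives, and against day 0 without VC the WT value of Vegfa was -0.52, called lower. On the earlier day without VC, Aldoc and Pfkfb4 rose in both and Eno2 and Adm fell in both, and Egln1 was opposite (all genes: 4.34% higher in both, 3.15% lower in both and 0.145% opposite). The WT call of Egln1 held under 2 of 10 alternatives, that of Eno2 under 3 of 10 and that of Adm under 4 of 10. With VC on that day 5 rose in both (Slc2a3, Hk1, Gpi1, Aldoc, Pfkfb4), 7 fell in both (Slc2a1, Slc16a3, Pfkfb3, Eno2, Hif1a, Bnip3, Adm), and Egln3 and Ndrg1 were opposite (all genes: 10.7% higher in both, 10.2% lower in both and 0.878% opposite). The WT call of Hif1a held there under 4 of 11 alternatives, and against day 0 without VC the WT values of Hif1a and Ndrg1 changed sign. Against that baseline the D/KO value of Hk1 also changed sign, to -0.063, and was not called. Markers of the cells moved over the same days. Summed fibroblast markers (12 genes) were 91000 to 133000 CPM at day 0 and 43000 to 44700 CPM at day 4 in D/KO without VC, 193000 to 264000 and 36100 to 37000 CPM with VC, and in WT 58000 to 60000 and 51600 to 54100 CPM without and 164000 to 180000 and 66300 to 78400 CPM with VC. Summed epithelial markers (8 genes) were 3.61 to 5.54 and 47.5 to 70.4 CPM in D/KO without VC and 1.42 to 1.82 and 483 to 596 CPM with VC on the same days. The part of these markers in the changes was not tested.

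**Figure D1:**
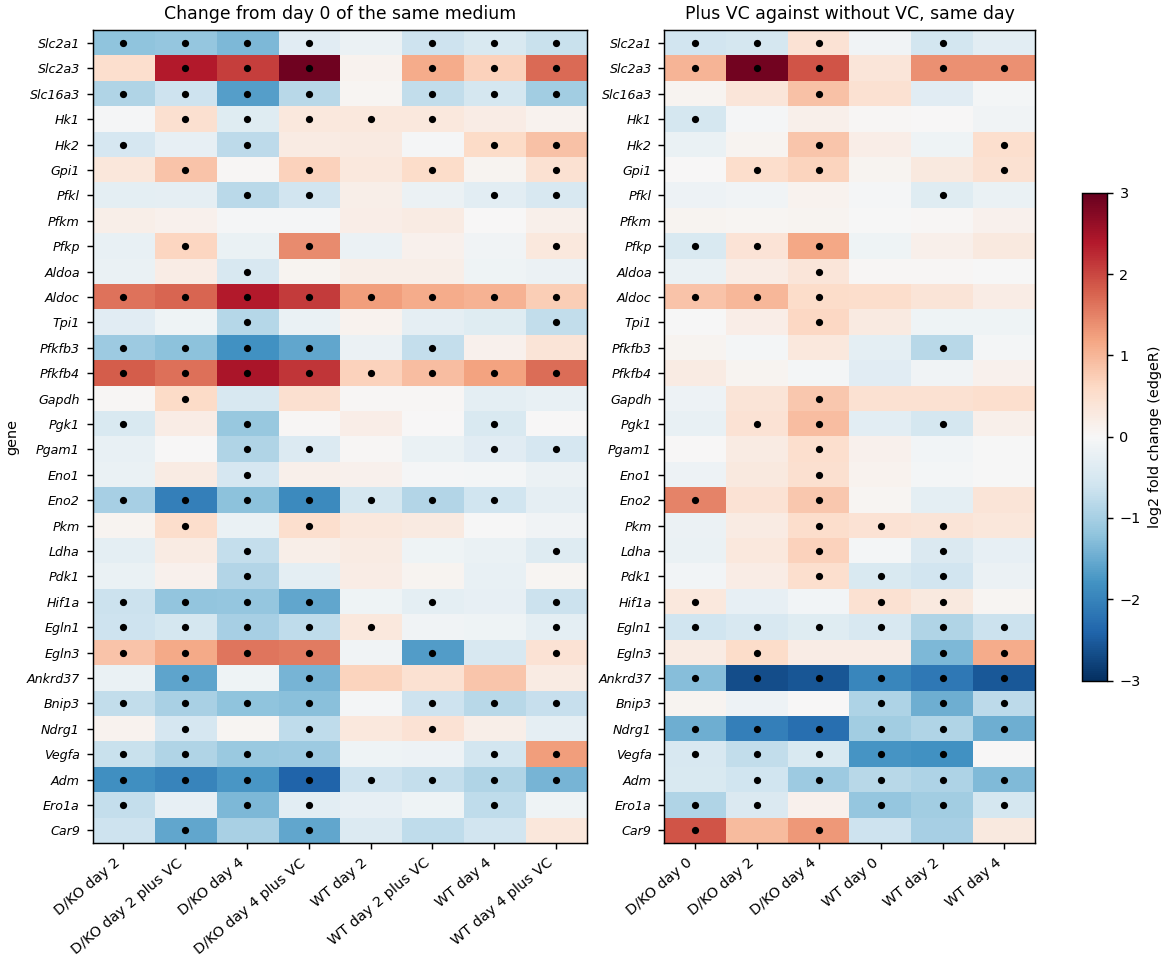
Colour gives the log2 fold change (edgeR) of each of the 32 genes, rows ordered by role, for the 8 changes from day 0 in the left panel and for plus VC against without VC on the same day in the right panel, and a dot marks adjusted p under 0.05. Slc2a3, Aldoc and Pfkfb4 stand out in red on the left, Adm is blue in all 8 columns, and Ankrd37 and Ndrg1 are blue in all 6 columns on the right.

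The glucose transporter genes moved in opposite directions, the rare Slc2a3 upward and the common Slc2a1 downward. Slc2a3 (ENSMUSG00000003153, chr6:122704768-122778599), the high-affinity transporter known from neurons and embryonic cells, read 2.06, 2.81 and 3.3 CPM at day 0, 3.45, 3.25 and 4.85 CPM at day 2 and 11.2, 7.99 and 15.2 CPM at day 4 in D/KO without VC. With VC it read 5.05, 6.85 and 4.77 CPM at day 0, 29.3, 26.5 and 31.1 CPM at day 2 and 35.5, 45.2 and 45.4 CPM at day 4. In D/KO the day 4 libraries lay above every day 0 library in both media, and with VC so did day 2. In WT it read 6.9, 6.82 and 7.81 CPM at day 0, 8.24, 7.71 and 7.37 CPM at day 2 and 11.5, 11.4 and 12.1 CPM at day 4 without VC. The same WT cells with VC read 9.47, 9.46 and 8.76 CPM at day 0, 19.1, 20.2 and 20.9 CPM at day 2 and 25.9, 31.6 and 33.1 CPM at day 4. The WT libraries of day 4 also lay above day 0 in both media, over a smaller span. The log2 fold change at day 4 was 2.06 ± 0.20 in D/KO and 0.70 ± 0.17 in WT without VC (edgeR adjusted p = 6.28e-11 and 0.00267), and 2.92 ± 0.18 and 1.71 ± 0.17 with VC (adjusted p = 3.92e-16 and 2.17e-10). At day 2 it was called in the medium with VC, at 2.39 ± 0.18 in D/KO and 1.12 ± 0.17 in WT, with edgeR adjusted p = 1.66e-13 and 2.83e-06, while without VC the values were 0.49 ± 0.21 and 0.11 ± 0.18.

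Slc2a1 (ENSMUSG00000028645, chr4:118965908-118995180), the GLUT1 transporter that most cells use, read 185, 181 and 241 CPM at day 0, 82, 81.8 and 99.8 CPM at day 2 and 79.98, 85.6 and 71.7 CPM at day 4 in D/KO without VC, and every later library lay below every day 0 library. It fell at day 4 by 1.36 on the log2 scale in D/KO and by 0.46 in WT. With VC the D/KO change at day 2 was -1.15 ± 0.15, and at day 4 it was -0.35 ± 0.15, with edgeR adjusted p = 0.0499, next to the threshold. Slc16a3, the MCT4 carrier that exports lactate, fell at day 4 by 1.65 in D/KO and 0.54 in WT without VC, and by 0.83 and 1.04 with VC. Per length Slc2a1 remained the more abundant transporter at day 4 without VC, at 86.1 ± 0.396 TPM against 6.18 ± 2.49 TPM for Slc2a3 in D/KO, and at 112 ± 16.8 against 21.3 ± 1.59 TPM with VC.

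In the upper steps of glycolysis most enzymes changed little, fell, or, with VC, rose modestly, and the aldolase isoform Aldoc rose in all 8 changes. Aldoc (ENSMUSG00000017390, chr11:78213794-78218607), aldolase C, known from brain, read 7.03, 8.5 and 11.4 CPM at day 0, 25.8, 29.7 and 27.7 CPM at day 2 and 51.2, 52.5 and 37.8 CPM at day 4 in D/KO without VC. The D/KO libraries with VC read 14.6, 19 and 15.6 CPM at day 0, 52.3, 49.7 and 62.7 CPM at day 2 and 61.9, 79.2 and 67.2 CPM at day 4. In D/KO the libraries of days 0, 2 and 4 formed separate ranges without VC. WT cells read 8.06, 6.28 and 6.63 CPM at day 0, 17.6, 19.3 and 12.8 CPM at day 2 and 13.2, 15.8 and 14.1 CPM at day 4 without VC. WT cells with VC gave 10.2, 8.66 and 11.2 CPM at day 0, 23.4, 20.1 and 21.4 CPM at day 2 and 23.3, 15.2 and 11.9 CPM at day 4. In WT without VC days 2 and 4 overlapped each other but not day 0. Its log2 fold change in D/KO was 1.62 ± 0.19 at day 2 and 2.39 ± 0.19 at day 4 without VC (edgeR adjusted p = 1.93e-08 and 9.97e-13). In WT it was 1.25 ± 0.20 and 1.04 ± 0.20 (edgeR adjusted p = 1.74e-05 and 0.000115), and at day 2 plus VC it was 1.11 ± 0.19 (adjusted p = 2.2e-05). The abundant aldolase, Aldoa, fell in D/KO at day 4 without VC by 0.48 and was called in no other change from day 0.

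Hk2, the inducible hexokinase that traps glucose in the cell, moved in opposite directions in the lines. It read 59.2, 55.9 and 50.8 CPM at day 0, 39, 36.4 and 40.8 CPM at day 2 and 30.2, 32.3 and 33.1 CPM at day 4 in D/KO and 35.5, 28.6 and 27.6 CPM at day 0, 41.8, 32.7 and 36.6 CPM at day 2 and 48.1, 44.7 and 43.4 CPM at day 4 in WT without VC. Both day 4 groups lay apart from their own day 0 libraries, downward in D/KO and upward in WT. The log2 fold changes at day 4 were -0.79 ± 0.14 and 0.57 ± 0.14, and with VC WT rose by 0.88 ± 0.14 while D/KO had 0.24 ± 0.14. Hk1, the constitutive hexokinase, stayed within -0.36 to 0.47 on the log2 scale in all 8 changes. Of the phosphofructokinase subunits, Pfkp rose with VC at day 4 by 1.43 ± 0.12 in D/KO and 0.32 ± 0.12 in WT, where the call held under 4 of 11 alternatives, Pfkl fell by 0.81 in D/KO at day 4, and Pfkm was called in none of the 8 changes. Gpi1 (glucose-6-phosphate isomerase) rose at day 4 plus VC by 0.69 ± 0.14 in D/KO and 0.45 ± 0.14 in WT, and Tpi1 (triosephosphate isomerase) fell at day 4 by 0.86 in D/KO without VC and by 0.75 in WT with VC.

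The genes of the enzymes that set fructose-2,6-bisphosphate, the activator of phosphofructokinase, went apart. Pfkfb4 (ENSMUSG00000025648, chr9:108820846-108861296) read 4.45, 5.1 and 5.18 CPM at day 0, 16.3, 15.9 and 19.8 CPM at day 2 and 22.7, 27.2 and 31 CPM at day 4 in D/KO without VC. With VC it gave 6.92, 5.8 and 4.63 CPM at day 0, 21.3, 16.3 and 17.4 CPM at day 2 and 25.6, 27.7 and 23.8 CPM at day 4. In D/KO all day 2 and day 4 libraries lay above the day 0 libraries of the same medium. In WT it read 7.67, 5.26 and 7.55 CPM at day 0, 11.6, 10.7 and 10.6 CPM at day 2 and 13.9, 17 and 16.3 CPM at day 4 without VC. With VC the WT values were 7.39, 4.73 and 4.05 CPM at day 0, 9.99, 10.3 and 10.3 CPM at day 2 and 17.9, 18.8 and 14.8 CPM at day 4. The same was true of WT in both media. Its log2 fold change in D/KO without VC was 1.82 ± 0.18 at day 2 and 2.45 ± 0.18 at day 4, and it was 2.15 ± 0.18 at day 4 plus VC, with edgeR adjusted p = 4.23e-10, 9.36e-14 and 1.22e-12. In WT the corresponding values were 0.69 ± 0.17, 1.20 ± 0.17 and 1.67 ± 0.18, with edgeR adjusted p = 0.00724, 1.55e-06 and 1.35e-09. The WT call at day 2 was lost when WT day 0 replicate 2 was left out.

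Pfkfb3 (ENSMUSG00000026773, chr2:11476244-11558888), the isoenzyme with the strongest kinase activity, read 84, 87.2 and 42.5 CPM at day 0, 33.5, 37.1 and 29.5 CPM at day 2 and 22.7, 17.6 and 20.6 CPM at day 4 in D/KO without VC. In D/KO with VC it read 88, 96.8 and 40.8 CPM at day 0, 31.1, 32.7 and 32.3 CPM at day 2 and 27.4, 25.7 and 23 CPM at day 4. Day 0 replicate 3 was the lowest day 0 library in both media, and it still lay above every day 2 and day 4 library. The WT libraries read 53.3, 50.1 and 49.3 CPM at day 0, 45.1, 43.6 and 45.7 CPM at day 2 and 64.3, 52.2 and 49.5 CPM at day 4 without VC. In WT with VC it read 38.1, 39.3 and 46.5 CPM at day 0, 19, 26.9 and 29.4 CPM at day 2 and 58.4, 54.3 and 48 CPM at day 4. The WT day 0 and day 4 libraries overlapped without VC. In D/KO it fell at day 4 by 1.81 on the log2 scale without VC and 1.57 with VC, and the WT values were 0.12 ± 0.20 and 0.38 ± 0.21.

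Most genes of the lower steps of glycolysis, which return ATP, fell in D/KO without VC. Of the 7 genes of the lower steps, Pgk1, Pgam1, Eno1, Eno2 and Ldha fell at day 4 in D/KO without VC, which is 5 of 7 (all genes tested: 18.7% lower). With VC 2 of 7 fell at day 4, Pgam1 and Eno2, a share near that of all genes (26.2%). Pgk1 (ENSMUSG00000062070, chrX:105230706-105247305), the gene with a pair of separate matches in its promoter, read 1482, 1423 and 2000 CPM at day 0, 1137, 1136 and 1294 CPM at day 2 and 727, 822 and 698 CPM at day 4 in D/KO without VC. With VC the values were 1078, 1459 and 1635 CPM at day 0, 1370, 1652 and 1830 CPM at day 2 and 1173, 1481 and 1647 CPM at day 4. Without VC the 3 day 4 libraries lay below every day 0 library, and with VC the days overlapped. The log2 fold change at day 4 was -1.13 ± 0.15 without VC (edgeR adjusted p = 1.68e-07) and 0.044 ± 0.15 with VC. Ldha, which makes lactate, had -0.72 ± 0.15 and 0.17 ± 0.15, Pkm had -0.20 ± 0.14 and 0.50 ± 0.14, and Gapdh had -0.47 ± 0.22 and 0.48 ± 0.22 in the same pair of comparisons. Pdk1, the kinase that keeps pyruvate out of the mitochondrial cycle, fell in D/KO at day 4 without VC by 0.88 and was called in no other of the 8 changes.

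Eno2 (ENSMUSG00000004267, chr6:124737016-124746636), the neuronal enolase, read 12.9, 11.8 and 9.72 CPM at day 0, 6.15, 5.97 and 5.01 CPM at day 2 and 5.91, 4.49 and 4.31 CPM at day 4 in D/KO without VC. D/KO cells with VC read 44.1, 28.6 and 23.9 CPM at day 0, 8.28, 8.58 and 6.32 CPM at day 2 and 7.98, 8.3 and 9.58 CPM at day 4. Its day 0 libraries with VC stood above all other D/KO libraries, so the change from day 0 with VC starts from a raised level. The log2 fold change at day 2 plus VC was -2.06 ± 0.17 (edgeR adjusted p = 1.33e-12), and at day 4 it was -1.22 ± 0.18 without VC and -1.90 ± 0.17 with VC. In WT it fell at day 4 by 0.60 without VC and had -0.26 ± 0.17 with VC.

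Among HIF and its hydroxylases the transcript of the factor fell while the hydroxylase gene Egln3 rose in D/KO cells. Hif1a read 234, 266 and 279 CPM at day 0, 175, 158 and 166 CPM at day 2 and 121, 104 and 126 CPM at day 4 in D/KO without VC, and fell at day 4 by 1.15 without VC and 1.55 with VC. In WT it had -0.24 ± 0.10 at day 4 and fell by 0.64 with VC. HIF1A is controlled mainly as a protein, which was not measured. Egln1, the main oxygen-sensing hydroxylase, fell in D/KO at day 4 by 0.99 without VC and 0.76 with VC.

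Egln3 (ENSMUSG00000035105, chr12:54225767-54250646), a hydroxylase that is itself induced by hypoxia, read 50.9, 55.6 and 60.1 CPM at day 0, 92.9, 94 and 113 CPM at day 2 and 173, 175 and 157 CPM at day 4 in D/KO without VC. With VC it read 56.1, 87.3 and 56.2 CPM at day 0, 129, 135 and 176 CPM at day 2 and 159, 187 and 240 CPM at day 4. Every D/KO library of day 2 and day 4 lay above the day 0 libraries of its medium. In WT it read 12.6, 11.7 and 14.3 CPM at day 0, 13.2, 11.4 and 11.2 CPM at day 2 and 9.82, 9.74 and 8.16 CPM at day 4 without VC. WT libraries with VC read 12.9, 12.8 and 19.4 CPM at day 0, 3.74, 5.44 and 4.92 CPM at day 2 and 22.6, 20.6 and 17.2 CPM at day 4, and the highest WT library lay below the lowest D/KO library. It rose in D/KO by 0.85 ± 0.16 at day 2, 1.60 ± 0.16 at day 4 and 1.56 ± 0.16 at day 4 plus VC on the log2 scale. In WT the values were -0.11 ± 0.18 and -0.48 ± 0.18 without VC, it fell at day 2 plus VC by 1.67 (edgeR adjusted p = 2.68e-08), and it rose at day 4 plus VC by 0.42 ± 0.17, with adjusted p = 0.0476.

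Of the 7 other hypoxia response genes, Bnip3, Adm, Vegfa and Ero1a fell in each line at day 4 without VC (all genes tested: 18.7% lower in D/KO and 12.8% in WT), and with VC all 7 fell in D/KO (26.2%) while in WT Bnip3 and Adm fell and Vegfa rose (22% lower and 22.7% higher). Of the calls with VC in D/KO, that of Ankrd37 held under 6 of 11 alternatives and that of Ero1a under 7 of 11, and against day 0 without VC the value of Car9 changed sign, to 0.34, and was not called. Against that baseline the WT value of Vegfa at day 4 plus VC was -0.52, called lower. At day 2 in WT Adm fell in both media, and with VC Bnip3 fell and Ndrg1 rose against day 0 plus VC, while against day 0 without VC Ndrg1 was called lower, at -0.60. Adm (ENSMUSG00000030790, chr7:110226868-110229027) read 215, 236 and 144 CPM at day 0, 67.4, 60.2 and 38.8 CPM at day 2 and 62.7, 63.5 and 50.1 CPM at day 4 in D/KO without VC. In D/KO with VC it read 165, 178 and 94.1 CPM at day 0, 39.9, 45 and 25.1 CPM at day 2 and 29.9, 27.7 and 25.2 CPM at day 4. In D/KO the day 0 libraries stood above all later ones in each medium. WT cells gave 332, 329 and 331 CPM at day 0, 218, 232 and 198 CPM at day 2 and 159, 192 and 176 CPM at day 4 without VC. With VC in WT the gene read 203, 182 and 169 CPM at day 0, 104, 129 and 106 CPM at day 2 and 59.2, 75.9 and 75.8 CPM at day 4. Every later library lay below the day 0 libraries of its line and medium, and in both lines the lowest libraries were those of day 4 plus VC, apart from D/KO day 2 plus VC replicate 3. The log2 fold changes in D/KO on day 2 were -1.84 ± 0.20 without and -1.99 ± 0.20 with VC, and with VC on day 4 -2.40 ± 0.21, with edgeR adjusted p = 2.83e-09, 2.73e-10 and 2.6e-12. In WT they were -0.91 ± 0.19 at day 4 and -1.39 ± 0.20 at day 4 plus VC, with edgeR adjusted p = 0.000439 and 3.59e-07.

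Vegfa (ENSMUSG00000023951, chr17:46327919-46343295), the main growth factor for blood vessels, read 125, 122 and 101 CPM at day 0, 79.1, 74.2 and 66.3 CPM at day 2 and 53.7, 47.1 and 60.3 CPM at day 4 in D/KO without VC. With VC the levels were 102, 68.4 and 77.4 CPM at day 0, 49, 42.5 and 40.7 CPM at day 2 and 39.99, 36.4 and 40.1 CPM at day 4. In D/KO the levels stepped down in both media. The WT libraries gave 179, 149 and 151 CPM at day 0, 154, 138 and 148 CPM at day 2 and 95.8, 116 and 117 CPM at day 4 without VC. The WT libraries with VC gave 51.5, 46.2 and 41.9 CPM at day 0, 37, 49.7 and 38.5 CPM at day 2 and 92.8, 138 and 102 CPM at day 4. In WT with VC day 4 lay above day 0 and day 2. The log2 fold change at day 4 plus VC was -1.09 ± 0.14 in D/KO and 1.26 ± 0.14 in WT, and without VC -1.11 ± 0.14 and -0.54 ± 0.14. Against the day 0 libraries that had no VC, the same WT libraries gave -0.52, and VC alone had lowered Vegfa at day 0.

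Ero1a, which forms disulphide bonds in secreted proteins, fell at day 4 by 1.36 in D/KO and 0.76 in WT without VC, and Bnip3, a receptor for the removal of mitochondria, by 1.21 and 0.82. Ndrg1, a gene induced by stress and differentiation, had 0.058 ± 0.12 and 0.17 ± 0.12 at day 4 without VC. Ankrd37 read 2.19, 3.81 and 1.65 CPM at day 0, 2.36, 2.15 and 2.18 CPM at day 2 and 2.66, 2.3 and 2.1 CPM at day 4 in D/KO without VC, with all 3 days overlapping, and Car9 1.48, 1.7 and 1.71 CPM at day 0, 1.32, 0.29 and 1.53 CPM at day 2 and 0.543, 1.36 and 0.593 CPM at day 4. Both are low enough that a library rests on few reads.

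**Figure D2:**
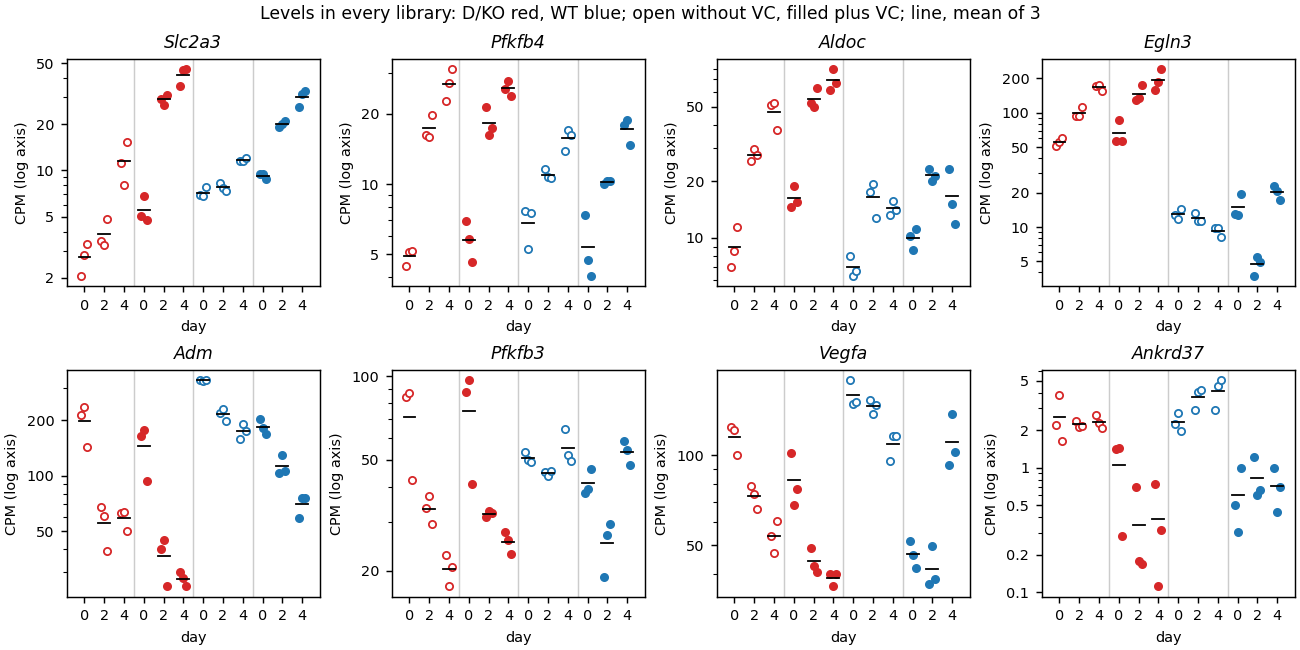
Each panel gives 1 gene's level (CPM, log axis) by day, with open points for libraries without VC, filled points for plus VC, D/KO in red and WT in blue, and a line for the mean of 3 libraries. Slc2a3 and Pfkfb4 climb in both lines, Aldoc climbs in D/KO and in WT lies above day 0 at both later days, Egln3 climbs in D/KO from a day 0 level of 55.6 ± 4.62 CPM, Adm steps down in both lines, and Ankrd37 is lower wherever VC was present.

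Did the lines respond differently? The test was the difference between the change in D/KO and the change in WT, as an interaction in the same fit. At day 4 without VC the D/KO change was called more positive for 4 members and more negative for 14 (all genes tested: 7.27% and 7.04%), and at day 4 plus VC for 7 and 9 (13.9% and 15.5%). At day 2 the counts were 2 and 6 without VC (3.43% and 3.11%) and 4 and 5 with VC (6.86% and 7%), and without the filter on low counts the 8 members of day 2 without VC became 13. At day 4 without VC the 4 more positive members were Slc2a3, Aldoc, Pfkfb4 and Egln3, and the 14 more negative ones held Pfkfb3, Hk2, Slc16a3, Hif1a, Slc2a1, Egln1 and Adm among others.

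Egln3, whose values by library are given above, had the largest difference of the members at day 4 without VC, 2.08 ± 0.24 log2 units (edgeR adjusted p = 8.63e-08), and its difference at day 2 plus VC was 2.81 ± 0.26 (adjusted p = 7.3e-10). Pfkfb3 differed by -1.93 ± 0.30 without VC and -1.94 ± 0.30 with VC (edgeR adjusted p = 1.14e-05 and 4.54e-06). Vegfa differed by -2.34 ± 0.20 with VC (edgeR adjusted p = 4.27e-11), and without VC by -0.56 ± 0.20, with adjusted p = 0.0488, a call that held under 8 of 16 alternatives. At day 4 without VC the 3 genes that rose in both lines rose further in D/KO, and the difference was 1.36 ± 0.26 for Slc2a3, 1.35 ± 0.27 for Aldoc and 1.25 ± 0.25 for Pfkfb4. Of the 6 that rose in both at day 4 plus VC, the difference was called for Slc2a3 at 1.21 ± 0.24, Aldoc at 1.34 ± 0.27, Pfkp at 1.10 ± 0.17 and Egln3 at 1.13 ± 0.24, and Pfkfb4 and Gpi1 had 0.48 ± 0.25 and 0.23 ± 0.19. With VC, Tpi1, Pkm and Ldha differed in the positive direction, by 0.54 ± 0.20, 0.60 ± 0.19 and 0.57 ± 0.21, where without VC their differences were -0.49 ± 0.20, -0.19 ± 0.19 and -0.51 ± 0.21. The calls with VC held under 7 of 16, 13 of 16 and 7 of 16 alternatives. The cultures were not alike in other cells' markers. The summed level of Pecam1, Cdh5, Kdr and Tek, 4 endothelial genes, was 512 to 599 CPM in D/KO and 14.4 to 17.2 CPM in WT at day 0, where 1 of the 4 had a mean of at least 1 CPM, and 377 to 509 CPM in D/KO at day 4 plus VC. Summed epithelial markers (8 genes) were 483 to 596 CPM in D/KO at day 4 plus VC and 7.51 to 8.33 CPM in WT. Their part in the differences was not tested.

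**Figure D3:**
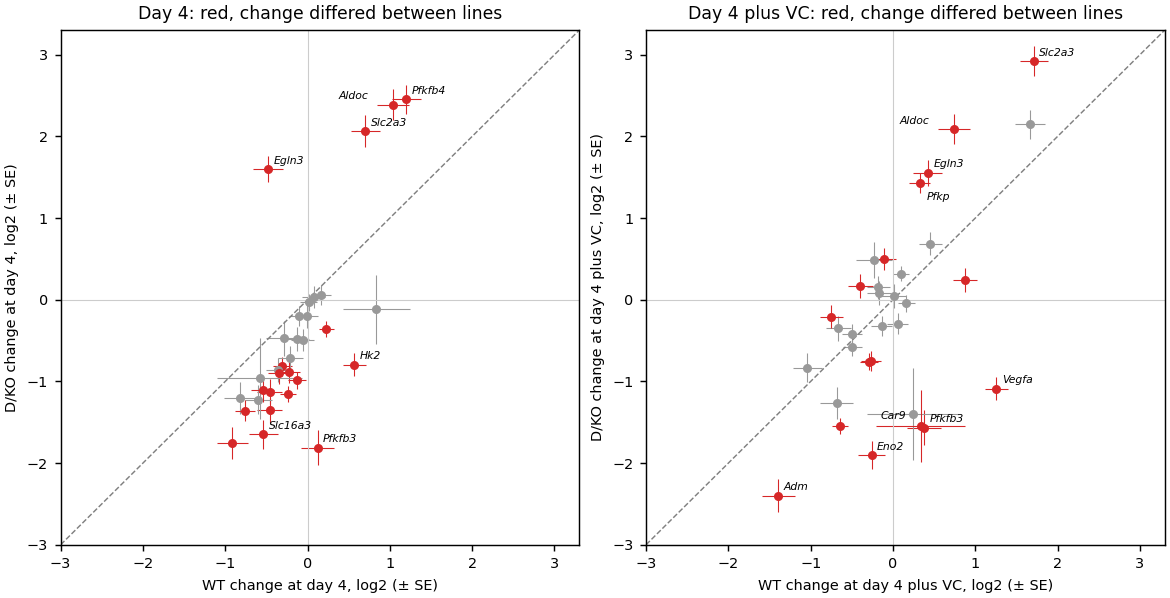
Each point is 1 of the 32 genes, with its log2 change from day 0 in WT on the horizontal axis and in D/KO on the vertical axis, bars giving ± SE, at day 4 (left) and day 4 plus VC (right), and red marks a called difference between the changes. Slc2a3, Aldoc, Pfkfb4 and Egln3 lie above the line of equal change on the left, Pfkfb3 and Hk2 below it, and Vegfa lies far below it on the right.

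What did VC do on a given day? In D/KO at day 4, 18 members were higher with VC, and in WT on the same day 4 were. In D/KO 5 members were called higher with VC and 8 lower at day 0 (all genes tested: 12.1% and 14%), 6 and 7 at day 2 (11.1% and 14.2%), and 18 and 5 at day 4 (16.8% and 17.7%). In WT the counts were 2 and 8 at day 0 (15.1% and 14.4%), 3 and 14 at day 2 (13.5% and 13%), and 4 and 6 at day 4 (12% and 10.4%). The 18 in D/KO at day 4 held all 7 genes of the lower steps, from 0.49 ± 0.14 for Eno1 to 0.94 ± 0.15 for Pgk1 on the log2 scale, and also Pfkp at 1.16 ± 0.12, Slc16a3 at 0.89 ± 0.18, Hk2 at 0.84 ± 0.14 and Pdk1 at 0.51 ± 0.13. The same 7 genes in WT at day 4 ran from -0.24 to 0.50, with none called. Fitting only the compared libraries gave 8 higher and 10 lower at day 4 in WT, 4 and 4 at day 0 in D/KO, and 13 and 8 at day 2 in D/KO. Whether the VC effect differed between the lines or the days was not tested. Markers moved with VC as well. In D/KO, summed epithelial markers were 47.5 to 70.4 CPM without and 483 to 596 CPM with VC at day 4, and endothelial markers 301 to 327 and 377 to 509 CPM, after 512 to 599 and 180 to 217 CPM at day 0. Summed fibroblast markers at day 0 were 91000 to 133000 CPM without and 193000 to 264000 CPM with VC in D/KO, and 58000 to 60000 and 164000 to 180000 CPM in WT, and the part of these markers was not tested. Ascorbic acid and CHIR were given together, so their effects cannot be told apart.

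Ankrd37 and Ndrg1 were lower with VC in both lines on every day. Ankrd37 (ENSMUSG00000050914, chr8:46449939-46458744), a small ankyrin-repeat gene known as a HIF target, whose promoter with overlapping matches is printed above, read 2.26, 2.74 and 1.99 CPM in WT at day 0 and 0.505, 0.307 and 0.995 CPM with VC. At day 4 in D/KO it read 2.66, 2.3 and 2.1 CPM without and 0.74, 0.111 and 0.316 CPM with VC. In both cases the groups did not overlap. The log2 fold change of VC on Ankrd37 was -1.95 ± 0.49 in WT at day 0 (edgeR adjusted p = 0.00244) and -2.56 ± 0.51 in D/KO at day 4. Ndrg1 read 146, 152 and 111 CPM without and 24.5, 27.6 and 32.7 CPM with VC in D/KO at day 4, a log2 fold change of -2.27 ± 0.13, and in WT it fell by 1.47. VC also lowered Egln1 on every day in both lines, between -0.36 and -0.91 on the log2 scale.

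At day 0, before doxycycline, VC moved Car9 and Eno2 upward in D/KO and Vegfa downward in both lines. In D/KO, Car9 (ENSMUSG00000028463, chr4:43506966-43513729) read 1.48, 1.7 and 1.71 CPM without and 4.4, 5.42 and 8.42 CPM with VC, and Eno2 12.9, 11.8 and 9.72 CPM without and 44.1, 28.6 and 23.9 CPM with VC. For both genes all libraries with VC lay above all libraries without. The log2 fold change was 1.89 ± 0.45 for Car9 and 1.49 ± 0.16 for Eno2 (edgeR adjusted p = 0.00147 and 5.65e-09), while the WT values were -0.63 ± 0.53 and 0.053 ± 0.16. In WT, Vegfa read 179, 149 and 151 CPM without and 51.5, 46.2 and 41.9 CPM with VC, without overlap, a log2 fold change of -1.78 ± 0.14 (edgeR adjusted p = 4.43e-12), and in D/KO it was -0.49 ± 0.14. Ero1a fell with VC at day 0 in both lines, by 0.90 in D/KO and 1.15 in WT.

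How did the starting cells compare? D/KO fibroblasts had the higher levels of most glycolytic genes in both experiments, and WT skin fibroblasts exceeded WT tail tip fibroblasts in almost the whole set. In D/KO against WT at day 0, 20 members were called higher and 4 lower (all genes tested: 22.1% higher and 21.1% lower). Between control D/KO and control WT tail tip cells of the inhibitor experiment, 24 members were called higher and 1 lower (all genes tested: 21.3% higher and 18.9% lower). Between WT skin and WT tail tip, 29 members were called higher and 0 lower (all genes tested: 18.1% higher and 16.1% lower), with a median log2 difference of 1.18 over the 32 genes. Without WT skin replicate 1, which stood apart, 29 members were again higher. These are pairs of cell lines from different mice or, for skin, from another site, with 3 libraries each, and the D/KO lines of the experiments are different lines.

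Egln3 at day 0 read 50.9, 55.6 and 60.1 CPM in D/KO and 12.6, 11.7 and 14.3 CPM in WT, and Slc16a3 (ENSMUSG00000025161, chr11:120839306-120851694) 312, 353 and 539.9 CPM and 143, 157 and 136 CPM. Neither gene's lines overlapped. The log2 differences were 2.11 ± 0.17 and 1.47 ± 0.18 (edgeR adjusted p = 2.71e-12 and 2.44e-08), and in the inhibitor experiment 0.47 ± 0.11 and 0.76 ± 0.087. Car9 read 4.47, 2.44 and 1.59 CPM in control D/KO and 0.335, 0.232 and 0.206 CPM in WT tail tip cells, and Ero1a (ENSMUSG00000021831, chr14:45520544-45556228) 362, 386 and 371 CPM and 105, 113 and 86.5 CPM. The groups were apart for both. The log2 differences were 3.45 ± 0.40 and 1.89 ± 0.10 (edgeR adjusted p = 2.83e-06 and 3.36e-10). Adm and Vegfa went opposite ways in the experiments, at -0.74 ± 0.19 and -0.47 ± 0.14 in the reprogramming lines and 1.66 ± 0.12 and 0.43 ± 0.072 in the inhibitor experiment.

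In WT skin, Car9 read 8.22, 7.05 and 5.28 CPM against 0.335, 0.232 and 0.206 CPM in tail tip, and Aldoc 33.9, 40.9 and 36.7 CPM against 7.23, 5.38 and 6.71 CPM. Skin libraries lay above tail tip libraries without overlap for both genes. The log2 differences were 4.70 ± 0.40 and 2.53 ± 0.21 (edgeR adjusted p = 9.38e-09 and 1.01e-08), and without skin replicate 1 they were 4.55 and 2.59. The 3 members not called were Pfkm at -0.078 ± 0.091, Ndrg1 at 0.16 ± 0.082 and Ankrd37 at 0.49 ± 0.31, and Ankrd37 had -0.17 and Pfkm 0.0093 without skin replicate 1. Markers of other cells moved with these comparisons. Summed endothelial markers were 57.7 to 75.8 CPM in WT tail tip, 116 to 208 in WT skin and 240 to 288 in control D/KO, and summed skeletal muscle markers (4 genes) were 16.1 to 21.2 CPM in tail tip and 121 to 151 CPM in skin. Their part in the results was not tested.

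**Figure D4:**
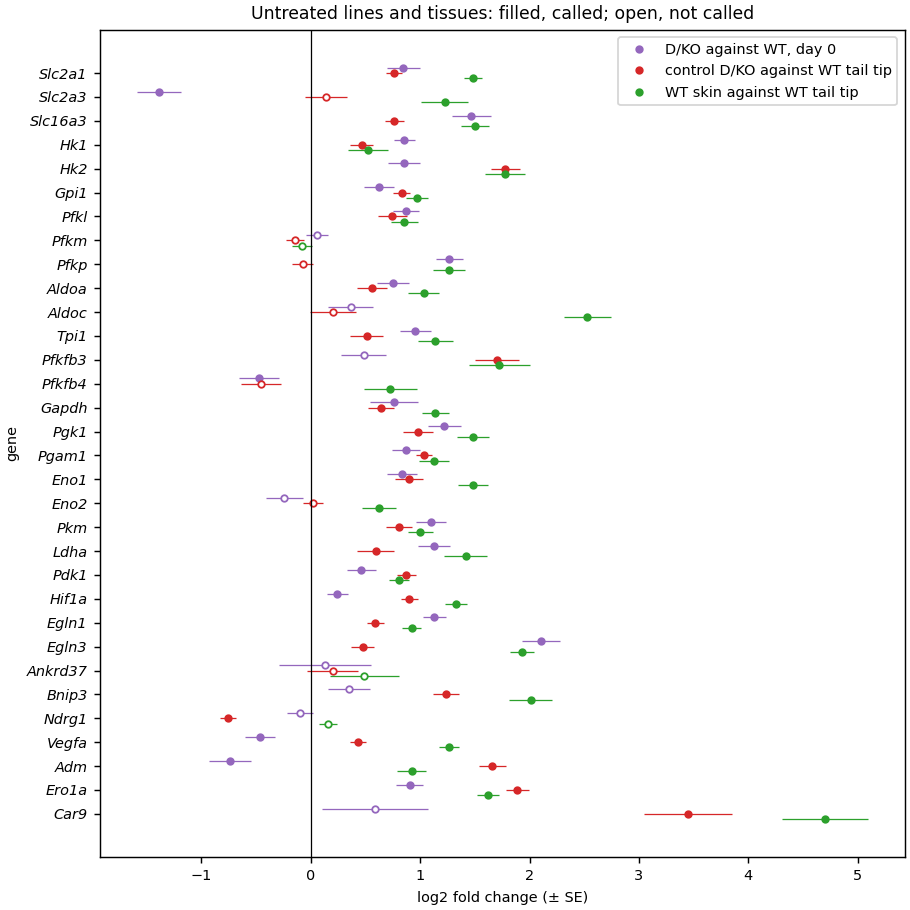
Points give the log2 difference (± SE, edgeR) of each gene between untreated groups, D/KO against WT at day 0 in purple, control D/KO against WT tail tip in red and WT skin against WT tail tip in green, filled where adjusted p was under 0.05. Most points lie right of 0, Slc2a3 and Adm lie left of it in purple, and Car9 lies farthest right in red and green.

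How did blocking TGF-beta receptor kinases change these genes? The ALK5 inhibitors lowered most of the set, and fewer members were called lower with the ALK2 inhibitor DMH-1. Against control D/KO, with Repsox 2 members were called higher and 26 lower (all genes tested: 13.4% higher and 11.8% lower), with Vactosertib 2 members were called higher and 25 lower (all genes tested: 11.8% higher and 10.3% lower), with A83-01 2 members were called higher and 27 lower (all genes tested: 16.4% higher and 16.2% lower), and with DMH-1 0 members were called higher and 14 lower (all genes tested: 5.96% higher and 3.79% lower). The median log2 fold change of the 32 genes was -0.86, -0.69, -0.98 and -0.35 in that order. All 4 comparisons use the same 3 control libraries, so they are set side by side and not counted as separate evidence. Without Repsox replicate 2, 2 members were higher and 27 lower with Repsox. The DMH-1 count was the least stable, falling from 14 to 7 or 8 members without control replicate 1, control replicate 2 or DMH-1 replicate 2.

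Pfkfb3 read 122, 144 and 138 CPM in control D/KO, 38.5, 21.4 and 38.5 CPM with Repsox, 38.2, 41.5 and 39.4 CPM with Vactosertib, 22.3, 34.8 and 27.9 CPM with A83-01 and 68.1, 78.8 and 69.1 CPM with DMH-1. Every treated library lay below every control library, and the DMH-1 libraries lay between the control and the ALK5 inhibitor libraries. Its log2 fold changes were -2.04 ± 0.20, -1.75 ± 0.20, -2.25 ± 0.21 and -0.90 ± 0.20, with edgeR adjusted p = 1.17e-06, 7.29e-06, 2.59e-07 and 0.00732. Hk2 (ENSMUSG00000000628, chr6:82702006-82751435) read 70.7, 69 and 68 CPM in control, 25.7, 18.8 and 24.8 CPM with Repsox, 25.5, 30.9 and 25.2 CPM with Vactosertib, 18.3, 20.03 and 17.8 CPM with A83-01 and 54.2, 50.7 and 44.5 CPM with DMH-1, again with DMH-1 in between. It fell by 1.59 with Repsox, 1.34 with Vactosertib, 1.89 with A83-01 and 0.47 with DMH-1 in log2 units (edgeR adjusted p = 1.5e-07, 1.27e-06, 1.33e-08 and 0.0285), and the call with DMH-1 held under 5 of 11 alternatives. Aldoc, which rose during reprogramming, read 7.41, 8.48 and 6.08 CPM in control, 2.17, 2.83 and 2.52 CPM with Repsox, 3.23, 3.71 and 4.23 CPM with Vactosertib, 2, 1.26 and 1.85 CPM with A83-01 and 3.01, 3.83 and 5.23 CPM with DMH-1, all treated libraries below all controls. Its log2 fold changes were -1.55 ± 0.22, -0.97 ± 0.22, -2.10 ± 0.23 and -0.87 ± 0.22 (edgeR adjusted p = 6.21e-05, 0.00393, 2.19e-06 and 0.016), and the call with DMH-1 held under 7 of 11 alternatives.

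Car9, which helps to keep the pH outside hypoxic cells acid, read 4.47, 2.44 and 1.59 CPM in control, 1.18, 1.51 and 1.38 CPM with Repsox, 1.24, 0.718 and 0.679 CPM with Vactosertib, 0.692, 0.42 and 0.443 CPM with A83-01 and 1.44, 1.28 and 1.15 CPM with DMH-1. The control libraries spread widely at these low levels, yet all treated libraries lay below the lowest of them. The log2 fold changes were -1.69 ± 0.35 with Vactosertib, -2.46 ± 0.37 with A83-01 and -1.14 ± 0.33 with DMH-1 (edgeR adjusted p = 0.00209, 5.73e-05 and 0.0397), and the call with DMH-1 held under 4 of 11 alternatives. Ero1a read 362, 386 and 371 CPM in control, 109.8, 117 and 116 CPM with A83-01 and 303, 328 and 289 CPM with DMH-1, and fell by 1.71 with A83-01, with DMH-1 at -0.28 ± 0.10. Hif1a itself fell with all 4 compounds, by 1.26, 1.25, 1.52 and 0.45 on the log2 scale for Repsox, Vactosertib, A83-01 and DMH-1. Without Repsox replicate 2 the Repsox values were -1.81 for Pfkfb3, -1.46 for Hk2, -1.65 for Aldoc and -1.19 for Hif1a, and Car9 was called at -1.16. Pdk1 fell by 1.5 and Pgk1 by 1.44 with A83-01.

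Adm and Ndrg1 were the members called higher with each ALK5 inhibitor, and no other was. Adm read 233, 221 and 228 CPM in control, 402, 535 and 407 CPM with Repsox, 386, 391 and 427 CPM with Vactosertib and 585, 535 and 556 CPM with A83-01, above all controls, and 224, 274 and 283 CPM with DMH-1, which overlapped them. The log2 fold changes were 0.98 ± 0.12, 0.83 ± 0.12 and 1.30 ± 0.12 for the ALK5 inhibitors and 0.20 ± 0.12 for DMH-1, and those of Ndrg1 were 0.67 ± 0.071, 0.56 ± 0.071, 0.89 ± 0.071 and 0.21 ± 0.071. Without Repsox replicate 2 the Repsox values of Adm and Ndrg1 were 0.82 and 0.62. Pfkfb4 had 0.32 ± 0.18, 0.077 ± 0.19, 0.46 ± 0.18 and -0.44 ± 0.19, of the 4 compounds Egln3 was called with A83-01, where it fell by 0.52, and Pfkm with Repsox, where it fell by 0.28. Eno2 was called with none of the compounds, with values from -0.24 ± 0.093 to -0.064 ± 0.093. Summed endothelial markers were 240 to 288 CPM in control, 146 to 294 with Repsox, 210 to 276 with Vactosertib, 106 to 143 with A83-01 and 283 to 359 with DMH-1, and summed fibroblast markers were 88800 to 97100, 43000 to 53000, 53600 to 57900, 46200 to 48700 and 74900 to 94300 CPM in that order. Summed Schwann cell markers (3 genes) were 6.61 to 9.53, 17.2 to 18.7, 13.7 to 17.6, 30.8 to 38.9 and 10.9 to 13.8 CPM in the same order. Summed skeletal muscle markers (4 genes, 2 of them at a mean of at least 1 CPM) were 28.6 to 34.9, 15.2 to 23.9, 15.6 to 17.7, 11.4 to 14.5 and 13.6 to 20 CPM. The part of these markers in the results was not tested.

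**Figure D5:**
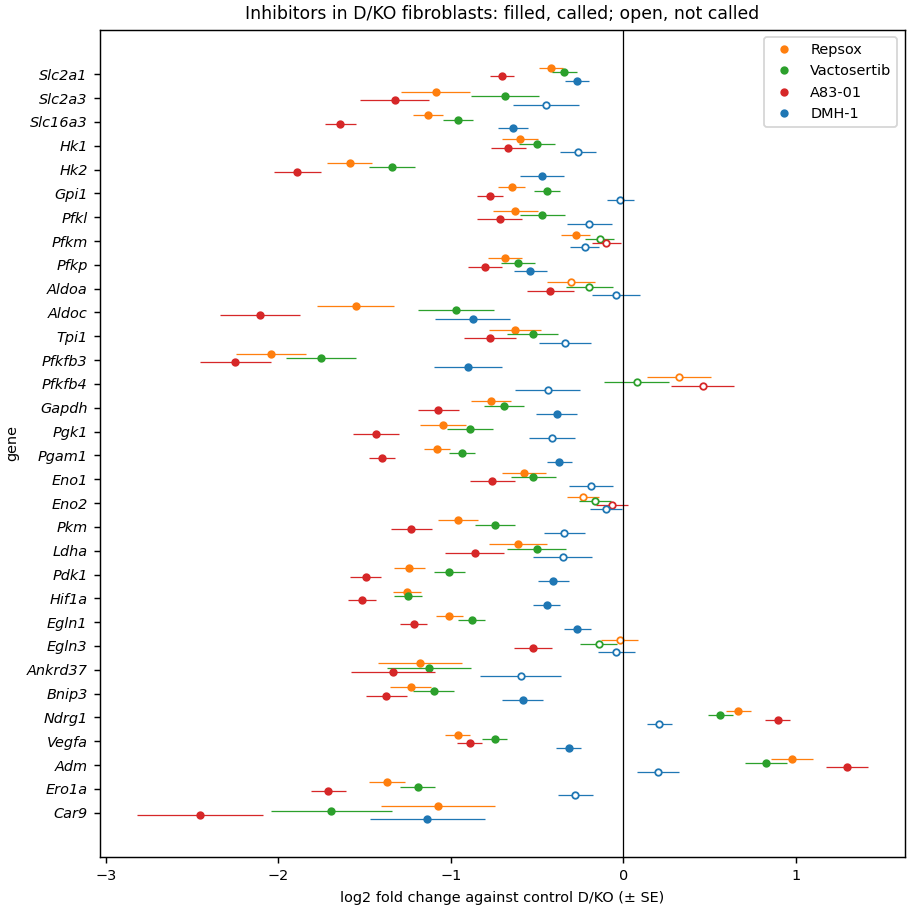
Points give the log2 fold change (± SE, edgeR) of each gene against control D/KO for Repsox (orange), Vactosertib (green), A83-01 (red) and DMH-1 (blue), filled where adjusted p was under 0.05. The ALK5 inhibitors lie to the left of DMH-1 for most genes, and Ndrg1 and Adm lie to the right of 0.

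The compounds were compared in 2 pairs matched in concentration, Repsox with Vactosertib at the lower and A83-01 with DMH-1 at the higher, and p-values were adjusted over all genes within each pair. Between A83-01 and DMH-1, which differ in their main target kinase, 3 members were called higher and 25 lower (all genes tested: 11.9% higher and 13.4% lower), A83-01 relative to DMH-1. Hk2 differed by -1.42 ± 0.13 and Ero1a by -1.43 ± 0.10 log2 units (edgeR adjusted p = 5.26e-07 and 2.55e-08, 95% intervals -1.70 to -1.14 and -1.65 to -1.21), and their libraries, given above, did not overlap. The members higher with A83-01 were Adm at 1.10 ± 0.12, Pfkfb4 at 0.90 ± 0.18 and Ndrg1 at 0.69 ± 0.071.

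Repsox and Vactosertib both inhibit ALK5, and the paper describes Vactosertib as also inhibiting ALK2. Between them edgeR called 0 members higher and 0 lower (all genes tested: 0% and 0%). At an unadjusted p under 0.05, 4 members differed in edgeR and 5 in DESeq2, which called 0 after adjustment. The 95% interval of the difference lay within 1 log2 unit of 0 for 30 of the 32 genes, and over all members the bounds ran from -1.06 to 1.38. The difference was negative for 27 of 32 members, with a median of -0.12, and intervals of this width do not show that the compounds act alike. For Hk2 the interval was -0.53 to 0.031 and for Pfkfb3 -0.71 to 0.13. Without Repsox replicate 2, edgeR called 0 members, 11 had an unadjusted p under 0.05, 26 differences were negative with a median of -0.17, and the bounds ran from -1.22 to 1.39.

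The TGFB-treated WT line had a level pattern of its own, which has no matched control here. Vegfa read 594, 578 and 679 CPM, Hk2 189.7, 187 and 192 CPM and Slc2a1 378, 375 and 371 CPM, each at or near the top of the inhibitor table, and Adm read 8.47, 12.5 and 12.3 CPM and Eno2 4.65, 5.02 and 3.35 CPM, the lowest there. No difference from untreated cells of that line was tested, since they were counted in another table.

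Other genes of these pathways, from lists made with the members, moved in the same comparisons. Of 32 further hypoxia response genes, 5 rose and 18 fell in D/KO at day 4 (all genes tested: 18.3% and 18.7%), with Stc2 (a secreted glycoprotein) at a log2 fold change of 1.67. In WT at day 4, 5 rose and 12 fell (all genes: 11.7% and 12.8%). With A83-01, 2 rose and 23 fell (all genes: 16.4% and 16.2%), and with DMH-1 1 and 7 (5.96% and 3.79%). Stc1 had the largest rise with Repsox and A83-01, at 2.43 and 2.97, and Angptl4 and Car12 the largest falls, at -2.07 and -2.53.

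Of 13 other HIF pathway regulators, 3 rose and 2 fell in D/KO at day 4, close to the shares of all genes (18.3% and 18.7%), and 2 rose and 6 fell in WT (11.7% and 12.8%). Epas1, which encodes HIF2A, rose in both lines, by 1.62 and 2.12 on the log2 scale, where Hif1a fell in D/KO and was not called in WT, and Siah2, which limits the hydroxylases, fell by 1.46 and 0.69. Epas1 was also higher in D/KO than in WT at day 0, by 2.58, and in WT skin than in tail tip, by 2.63. Without skin replicate 1 the latter was 2.89. It is abundant in endothelial cells. Their summed markers were higher in the same groups of these 2 comparisons, and without VC they were 512 to 599 CPM at day 0 and lower, 301 to 327 CPM, at day 4 in D/KO, and 14.4 to 17.2 CPM at day 0 and higher, 95.2 to 95.7 CPM, at day 4 in WT. On both days only 1 of the 4 marker genes had a mean of at least 1 CPM in WT, where all 4 did in D/KO. The part of these markers was not tested. Of 16 other glycolysis genes tested, 2 rose and 5 fell in D/KO at day 4 (same shares), among them Gpd1 (glycerol-3-phosphate dehydrogenase) at 3.81, and in WT 0 rose and 4 fell (11.7% and 12.8%). With A83-01, 1 of 14 rose, Ldhb (the heart form of lactate dehydrogenase) at 1.20, and 5 fell, with Slc16a1, the MCT1 lactate carrier, at -1.51 (all genes: 16.4% and 16.2%).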

How the data were processed

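The deposited files are 2 tables of raw read counts per gene, which the authors made from paired-end reads with Trim Galore, HISAT2 on GRCm39 and featureCounts. Versions, annotation release and handling of strand and multimapped reads are not given in the sources used here. Counts were tested with edgeR 4.0.16 in R 4.3.3 (TMM, filterByExpr with a minimum count of 10, quasi-likelihood F-test, 1 factor for the group), fitting 36 reprogramming libraries (15832 genes), 18 inhibitor libraries (15164 genes) or, for skin, all 24 (15652 genes), with Benjamini-Hochberg adjustment within each comparison. Levels are CPM on TMM-scaled library sizes, or TPM from the gene lengths deposited with the counts, and errors of fold changes are SE. Library values are given for the called members with the 3 largest changes in each change from day 0 and each inhibitor comparison, and with the 2 largest in VC at day 0, the line difference at day 4, the compound pairs and the comparisons of untreated groups. The 32 members, the lists and the rule were chosen with earlier results of these data known. Alternatives were DESeq2 1.42.0, its size factors, no filter, other sets of libraries, another baseline and leaving out each library. The script for the tests was checked on simulated counts. No pair of libraries agreed within counting noise. Coordinates of genes are GRCm39. Symbols came from GENCODE M39, and 149 of 150 listed related and marker genes were found. The value of 1 listed related gene is not reported here.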

Additional observations from a re-analysis of the deposited data

Results flagged for a closer look

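Several results were marked because the change during reprogramming differed between D/KO and WT cells in a direct test of the difference (edgeR interaction, adjusted p under 0.05). The difference was called for 8 of the 32 members at day 2 (all genes tested: 3.43% with the D/KO change more positive and 3.11% more negative), 9 at day 2 plus VC (6.86% and 7%), 18 at day 4 (7.27% and 7.04%) and 16 at day 4 plus VC (13.9% and 15.5%). Among single genes, Egln3 differed by 2.08 on the log2 scale at day 4, where it rose in D/KO and not in WT. Pfkfb3 differed by -1.93 at day 4 and -1.94 at day 4 plus VC, falling in D/KO and not in WT. Vegfa differed by -2.34 at day 4 plus VC, falling in D/KO and rising in WT against day 0 plus VC. VC alone had lowered Vegfa by 1.78 in WT at day 0. Against day 0 without VC the same WT libraries gave -0.52, called lower. The lines differ in genotype, sex, age, the source of the OKSM transgene, the rise of Klf4 and their endothelial markers. What part each has in these differences cannot be told apart.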

How the results depend on the processing

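The number of members called was recomputed under each alternative for 27 comparisons. With the DESeq2 test and with DESeq2 size factors all 27 counts stayed within 1.5 times the reported one, as did the 4 with day 0 without VC as baseline. Without the filter on low counts 24 of 27 did, and the others were WT day 2 with 3 members, the line difference at day 2 with 13 and DMH-1 with 9. Fitting only the compared libraries gave 23 for WT day 4, 8 for VC at day 0 and 21 for VC at day 2 in D/KO, and 18 for VC at day 4 in WT, and fitting all 24 inhibitor libraries gave 9 for DMH-1. Leaving out single libraries kept 176 of 186 counts, and the range was 2 to 4 for WT day 2 (reported 6), with 2 or 3 without WT day 0 replicate 1, 2 or 3 or day 2 replicate 2 or 3, 9 to 12 for WT day 4 (reported 14), with 9 without day 0 replicate 2 or day 4 replicate 3, and 7 to 11 for DMH-1 (reported 14). For the fold changes that chose the genes given by library, 550 of 562 recomputed values kept direction and call, 12 lost the call (Pfkfb4 in WT day 2, Car9 and Aldoc with DMH-1) and 0 reversed. Over all members, 356 of 476 calls held under every alternative, and 7 values changed sign, all when day 0 without VC was the baseline: Car9 and Hk1 in both D/KO changes with VC, Hif1a and Ndrg1 in WT at day 2 plus VC, and Vegfa in WT at day 4 plus VC. The cause of the other changes was not tested. The median of all genes stayed within 0.07 log2 units of 0 under every setting. No paired analysis was possible because the labels number the libraries in a running order through the groups of each experiment and name no pairs. The replicate numbers used here are names given in that order, and no fit used the order within a group. Adm was lowest in replicate 3 of every D/KO group of the reprogramming experiment, while in WT the lowest replicate varied. Whether libraries at the same place in their groups belong together was not tested. Depth limits Car9, Ankrd37 and Slc2a3, which had the fewest counts.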

Other observations

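Genes of the mitochondrial cycle that follows glycolysis were called in D/KO cells in the upward direction. Of 16 genes of the tricarboxylic acid cycle, 9 rose and 0 fell at day 2 (all genes tested: 14.3% and 13.2%), 7 and 0 at day 4 (18.3% and 18.7%), and 10 and 0 at day 4 plus VC (27.9% and 26.2%), with Idh3g, a subunit of isocitrate dehydrogenase, at log2 fold changes of 0.75 and 1.09 at day 4 without and with VC. In WT, 1 rose and 2 fell at day 4 (all genes: 11.7% and 12.8%), and 4 and 5 with VC (22.7% and 22%), where Sdhc (succinate dehydrogenase) fell by 0.60. The D/KO change exceeded the WT change for 4 cycle genes at day 4 and 11 at day 4 plus VC, and fell short of it for 0 and 0 (all genes: 7.27% and 13.9% above, 7.04% and 15.5% below). With A83-01 1 cycle gene rose, Sdha, and 1 fell, Cs, the citrate synthase, at -0.54 (all genes: 16.4% and 16.2%).

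In the pentose phosphate pathway (7 genes), 4 rose in D/KO at day 4 plus VC (all genes: 27.9%), with Tkt (transketolase) at 1.22, and G6pdx, its entry enzyme, fell at day 4 without VC by 0.64 in D/KO and 0.65 in WT. Of 12 genes around pyruvate dehydrogenase, Pdk4, a kinase that blocks pyruvate use, rose by 0.73 in D/KO at day 4 without VC and fell by 2.5 at day 4 plus VC, from a day 0 level that VC alone had raised by 1.99. It rose with Repsox, Vactosertib, A83-01 and DMH-1 by 1.81, 1.65, 2.05 and 0.75. Of 7 gluconeogenesis genes listed, 4 were tested in the reprogramming table, and 1 rose and 2 fell in D/KO at day 4 (all genes: 18.3% and 18.7%).

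The share of Eno1b in the counts of Eno1 and Eno1b together followed the 4FJ lines across both tables. It was 22.2 to 29.8% in the 36 reprogramming libraries, 24.2 to 25.4% in the TGFB-treated 4FJ_(+/-)_OCT4-GFP cells of the inhibitor table, and 9 to 13.3% in the ERCC1_(+/+)_WT and ERCC1_(d/-) cells of that table. The reason was not tested. The 12 fibroblast markers summed to 79300 to 83300 CPM in the TGFB-treated libraries and 97000 to 101000 CPM in WT tail tip cells. Among them, Pdgfra read 16.9 ± 2.1 CPM and Dcn 19.4 ± 2.76 CPM in the TGFB-treated libraries. The 4 skeletal muscle markers summed to 1710 to 2060 CPM there and 16.1 to 21.2 CPM in WT tail tip cells. In each of these groups 2 of the 4 had a mean of at least 1 CPM.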
